A study of Homo sapiens with 45 samples.

Results

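Mirtrons are short introns that fold into miRNA hairpins once they have been spliced out and debranched. The 10 mature strands described here come from 6 of them: both strands of miR-877, miR-1227, miR-1229 and miR-1237, and the 3p strands of miR-1225 and miR-1226. They were chosen by name as classical mirtrons, from 2828 mature miRNAs with a row in the files, and rows for sequence variants (named with the ending .SNP) were summed to their miRNA. All 10 passed the filter on low counts in every fit.

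A canonical miRNA is cut from its primary transcript by DROSHA with DGCR8, whereas splicing sets the ends of a classical mirtron, so its 5p strand starts with the first base of the intron and its 3p strand ends with the last. The hairpin is then cut by DICER and one strand is kept in an Argonaute protein, while the other is usually lost. miR-1225 has also been described as a simtron, an intronic hairpin that can be made without splicing. Argonaute proteins (AGO1 to AGO4) hold the guide strand, and AGO2 can also cut its targets. TNRC6 proteins (GW182 family) bind Argonaute and recruit the deadenylases that shorten the tails of target mRNAs.

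Small RNAs were sequenced from HCT116 cells, an epithelial line from a human colorectal carcinoma, in 15 groups of 3 biological replicates. Whole-cell RNA came from wild-type cells (WT) and from knockouts with the genotypes TNRC6B-/-, TNRC6A-/-, TNRC6A/B-/-, AGO2-/-, AGO1-/-, AGO1/2/3-/- and AGO1/2-/-, written KO below. Argonaute-bound RNA came from immunoprecipitation (IP) of whole-cell extract. The antibody 2A7, against AGO1, was used on WT and AGO1 KO extract, and 3148, against AGO2, on WT and AGO2 KO extract. A pan-AGO antibody, labelled PAN, was used on extract of WT, AGO1/2 KO and AGO1/2/3 KO. The listed genotypes change neither AGO4 nor TNRC6C, so every group keeps those genes. The labels name no clones, so each genotype may be a single line, and p-values measure only the spread between replicates, which may be of cultures of that line. In RNA from a whole culture, fewer cells carrying a strand and fewer copies per cell cannot be told apart.

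The mature sequences are shown because their ends carry the mark of splicing and because the strands behaved differently. Capitals mark the seed, bases 2 to 8, which pairs with targets. Sequences are from RefSeq (GRCh38.p14), where all 10 names matched, and the hsa- prefix is dropped after this list.
hsa-miR-877-5p: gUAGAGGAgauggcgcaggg
hsa-miR-877-3p: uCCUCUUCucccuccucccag
hsa-miR-1225-3p: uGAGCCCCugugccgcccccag
hsa-miR-1226-3p: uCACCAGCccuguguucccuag
hsa-miR-1227-5p: gUGGGGCCaggcggugg
hsa-miR-1227-3p: cGUGCCACccuuuuccccag
hsa-miR-1229-5p: gUGGGUAGgguuugggggagagcg
hsa-miR-1229-3p: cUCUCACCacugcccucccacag
hsa-miR-1237-5p: cGGGGGCGgggccgaagcgcg
hsa-miR-1237-3p: uCCUUCUGcuccgucccccag

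All 6 of the 3p strands ended in AG, the last bases of an intron, against 12.1% of the 2370 mature human miRNAs in the table. The 5p strands of miR-877, miR-1227 and miR-1229 started with GU at base 1 of the hairpin, against 3.42% of all. miR-1237-5p instead lies at bases 50 to 70 of a hairpin of 102 bases and starts with CG. Ends set by splicing, and a hairpin that matches an intron, belong to the definition of a classical mirtron. The choice of strands thus set them in advance, and they describe the members without testing them. Each hairpin equalled an annotated intron (GENCODE v29 on GRCh38) base for base: miR-877 an intron of 86 bases in ABCF1, a translation factor, miR-1225 one of 90 bases in PKD1 (polycystin-1) and miR-1226 one of 75 bases in DHX30, an RNA helicase. miR-1227 was an intron of 88 bases of PLEKHJ1 in 9 of 11 transcripts, and miR-1229 one of 69 bases of MGAT4B, a glycosyltransferase, in 9 of 10. miR-1237 was an intron of 102 bases in RPS6KA4, a kinase.

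On GRCh38 the mature strands lie at chr6:30584332-30584351 and chr6:30584397-30584417 (plus strand) for miR-877, chr16:2090195-2090216 (minus) for miR-1225-3p and chr3:47849608-47849629 (plus) for miR-1226-3p. miR-1227 lies at chr19:2234133-2234149 and chr19:2234062-2234081 (minus), miR-1229 at chr5:179798323-179798346 and chr5:179798278-179798300 (minus) and miR-1237 at chr11:64368651-64368671 and chr11:64368683-64368703 (plus). Their GC content ran from 59.1% in miR-1226-3p to 90.5% in miR-1237-5p, against a median of 52.2% over all mature miRNAs. No pair of the 10 shared a seed, and only that of miR-1237-5p occurs in another human miRNA (miR-4488). miR-1227-5p is also the shortest strand, at 17 bases. The sources used here do not say how reads that match several features were counted, which bears most on these short or GC-rich strands.

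Total counts per library ran from 1783590 to 9860313, of which mature miRNAs took 39886 to 7144602. miRNAs made up 5.26% ± 0.476 (SD, n = 3) of WT whole-cell counts, 1.74% ± 0.386 in AGO1/2/3 KO and 10.1% ± 2.68 in TNRC6A/B KO. In WT they made up 17.4% ± 8.5 of AGO1 IP counts, 81.8% ± 0.493 of AGO2 IP counts and 42.1% ± 12.9 of the pan-AGO IP, and 1.7% ± 0.225 of the AGO1 IP in AGO1 KO. The AGO2 IP in AGO2 KO still held 19.3% ± 3.67, against 3.69% ± 0.669 in whole-cell RNA of that knockout. Fragments of AGO1 transcripts were 5.42 ± 1.3 CPM of all counts in WT whole-cell RNA against 1.03 ± 0.422 where AGO1 was knocked out, and those of AGO3 were 1.33 ± 0.764 in AGO1/2/3 KO against 6.73 ± 2.25 in WT. AGO2 fragments were 16.8 ± 3.42 in WT, 11.3 ± 4.12 in AGO2 KO and 22.2 ± 3.16 in AGO1/2 KO. TNRC6A fragments were 9.84 ± 2.61 in WT and 6.97 ± 1.55 in TNRC6A KO, which overlapped, and 5.92 ± 1.84 in TNRC6A/B KO. TNRC6B fragments were 16 ± 1.15 in WT, 8.67 ± 4.27 with TNRC6B lost and 6.83 ± 1.1 with both lost, but also 8.31 ± 2.82 in AGO1/2/3 KO. A knocked-out gene can still be transcribed, so AGO2, TNRC6A and TNRC6B fragments check little. The 8 colon epithelial marker miRNAs all had counts in every group and summed to 14846 to 15549 CPM of miRNA counts in WT whole-cell libraries. They summed to 759 to 1024 in AGO1/2/3 KO, while markers of blood (4 miRNAs) summed to 46.2 to 51.8 in WT and 343 to 457 in AGO1/2/3 KO. Liver (50 to 81.8 against 145 to 168) and muscle markers (17.3 to 30.8 against 33.6 to 97) were also higher there. Markers of endothelium and stroma (1322 to 1628 against 199 to 319) and of neurons (189 to 218 against 36.2 to 118) were lower there, so markers of other tissues went both ways. The part of these shifts in the results below was not tested.

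Levels are given as counts-per-million (CPM) of miRNA counts after TMM scaling, which sets libraries to the same level over most miRNAs. Tests used edgeR's quasi-likelihood method on all miRNAs that passed the count filter, and a strand is said to rise, fall or be called where its Benjamini-Hochberg adjusted p was under 0.05. Changes are log2 fold changes ± SE. TMM moves the scale: over all 1997 miRNAs tested in whole-cell RNA the median log2 change in AGO1, AGO2, AGO1/2 and AGO1/2/3 KO was 0.22, 0.04, 0.22 and 0.18, and when scaled to the miRNA total it was 0.68, 0.25, 0.80 and 1.3. Scaled to all RNAs counted it was -0.29, -0.26, -0.34 and -0.30. The IPs depend on the scale far more. Their TMM factors ran from 0.117 (WT AGO2 IP replicate 3) to 11.8 (AGO1 KO AGO1 IP replicate 3). For WT against knockout in the AGO1 IP and AGO2 IP, and AGO1 against AGO2 IP in WT, the median was -0.16, -0.44 and 0.34. With the miRNA total alone it was -3.07, -3.17 and 3.52. With TMM scaling the strands fell into 5 that were lower in AGO knockouts (both of miR-877 and the 3p strands of miR-1226, miR-1227 and miR-1229) and 5 that were not. This split was made after the values were seen and serves to order the description, with no test.

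miR-877-5p was the most abundant member, and it fell in every AGO knockout. The WT libraries held 4031, 3715 and 2631 CPM. AGO1 KO libraries held 894, 796 and 587 CPM and AGO2 KO libraries 1344, 1240.4 and 1111. AGO1/2 KO libraries held 316, 272 and 246 and AGO1/2/3 KO libraries 78.4, 132 and 130.2. Every AGO knockout library lay below every WT library, and the ranges of AGO1/2 KO and then AGO1/2/3 KO lay below those of the single knockouts. Loss of AGO1 left it 4.55-fold lower (log2 -2.19 ± 0.33 (SE, edgeR adjusted p = 2.53e-05)) and loss of AGO2 2.81-fold lower (log2 -1.49 ± 0.32 (SE, edgeR adjusted p = 0.0118)). It was 12.4-fold lower with both gone (log2 -3.63 ± 0.36 (SE, edgeR adjusted p = 8.89e-10)) and 30.1-fold lower with AGO3 gone as well (log2 -4.91 ± 0.40 (SE, edgeR adjusted p = 8.06e-13)). The step from AGO1/2 to AGO1/2/3 KO, -1.28 ± 0.39, did not pass (edgeR adjusted p = 0.0523). Its partner strand miR-877-3p held 270.1, 349 and 176 CPM in WT and 86.6, 87.9 and 90.7, 38.7, 42.9 and 65.2 and 0, 21.9 and 37.2 in AGO1, AGO1/2 and AGO1/2/3 KO. It fell in these 3 knockouts, by 1.58 ± 0.40, 2.43 ± 0.47 and 3.68 ± 0.57 on the log2 scale. In AGO2 KO its libraries were spread over 102, 13.6 and 152 CPM, all below WT, and the change of -1.55 ± 0.42 did not pass by edgeR (adjusted p = 0.0618) but did by DESeq2 (adjusted p = 0.0154).

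miR-1226-3p, from the DHX30 intron, also fell in every AGO knockout. WT libraries held 391, 409 and 353 CPM, AGO1 KO libraries 164, 142 and 85.3 and AGO2 KO libraries 102, 34.1 and 79.3. AGO1/2 KO libraries held 58.1, 35.8 and 29 CPM and AGO1/2/3 KO libraries 29.4, 14.6 and 0. No knockout library reached the lowest WT library. The last group includes a library with no count and rests on 5 counts in total. The log2 changes were -1.54 ± 0.36, -2.37 ± 0.40, -3.2 ± 0.44 and -4.68 ± 0.55 (edgeR adjusted p = 0.00389, 0.000898, 9.93e-07 and 7.36e-09). miR-1229-3p was also called in all 4, with 314, 427 and 335 CPM in WT libraries, 145, 137 and 123 with AGO1 lost and 107, 75 and 112 with AGO2 lost. AGO1/2 KO libraries held 25.8, 57.3 and 43.5 and AGO1/2/3 KO libraries 39.2, 21.9 and 46.5. Its knockout libraries all lay below WT, and those of AGO1/2 KO and AGO1/2/3 KO overlapped each other. Its log2 changes were -1.4 ± 0.33, -1.86 ± 0.36, -3.08 ± 0.41 and -3.34 ± 0.44. miR-1227-3p was scarcer, at 56.4, 103 and 88.2 CPM in WT against 30.9, 34.2 and 37.3 with AGO1 lost and 19.4, 21.5 and 14.5 with AGO2 lost too. On the log2 scale it fell by 1.27 ± 0.41, 2.12 ± 0.51 and 1.65 ± 0.51 in the AGO1, AGO1/2 and AGO1/2/3 knockouts, and its value of -0.53 ± 0.40 in AGO2 KO did not pass.

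With TMM scaling, edgeR called none of the other 5 strands lower than WT when Argonautes were lost. miR-1237-5p held 709, 578 and 621 CPM in WT and 588, 701 and 660.3 in AGO1/2/3 KO, groups that overlapped, with a log2 change of 0.03 ± 0.27 (edgeR adjusted p = 0.954). miR-1229-5p and miR-1227-5p were at 0.17 ± 0.33 and 0.02 ± 0.33 in the same knockout, also without passing. miR-1237-3p was 1.11 ± 0.41 there, from 96.7, 56 and 110.2 CPM in WT to 39.2, 226 and 298, and did not pass. miR-1225-3p, from the PKD1 intron, rose in AGO1 KO, from 258, 172 and 357 to 813, 688 and 907 CPM, with no overlap and a log2 change of 1.61 ± 0.37 (SE, edgeR adjusted p = 0.0033). AGO2 KO libraries held 357, 164 and 562 CPM, AGO1/2 KO libraries 516, 365 and 333 and AGO1/2/3 KO libraries 39.2, 139 and 214, none of which passed against WT. It was the 1 member called between AGO1/2/3 and AGO1/2 KO (4.21% of all tested miRNAs were called, 0.451% higher and 3.76% lower), lower by 1.62 ± 0.43 on the log2 scale (edgeR adjusted p = 0.0159), a call lost without AGO1/2 KO replicate 1 or without AGO1/2/3 KO replicate 1 or 2.

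**Figure D1:**
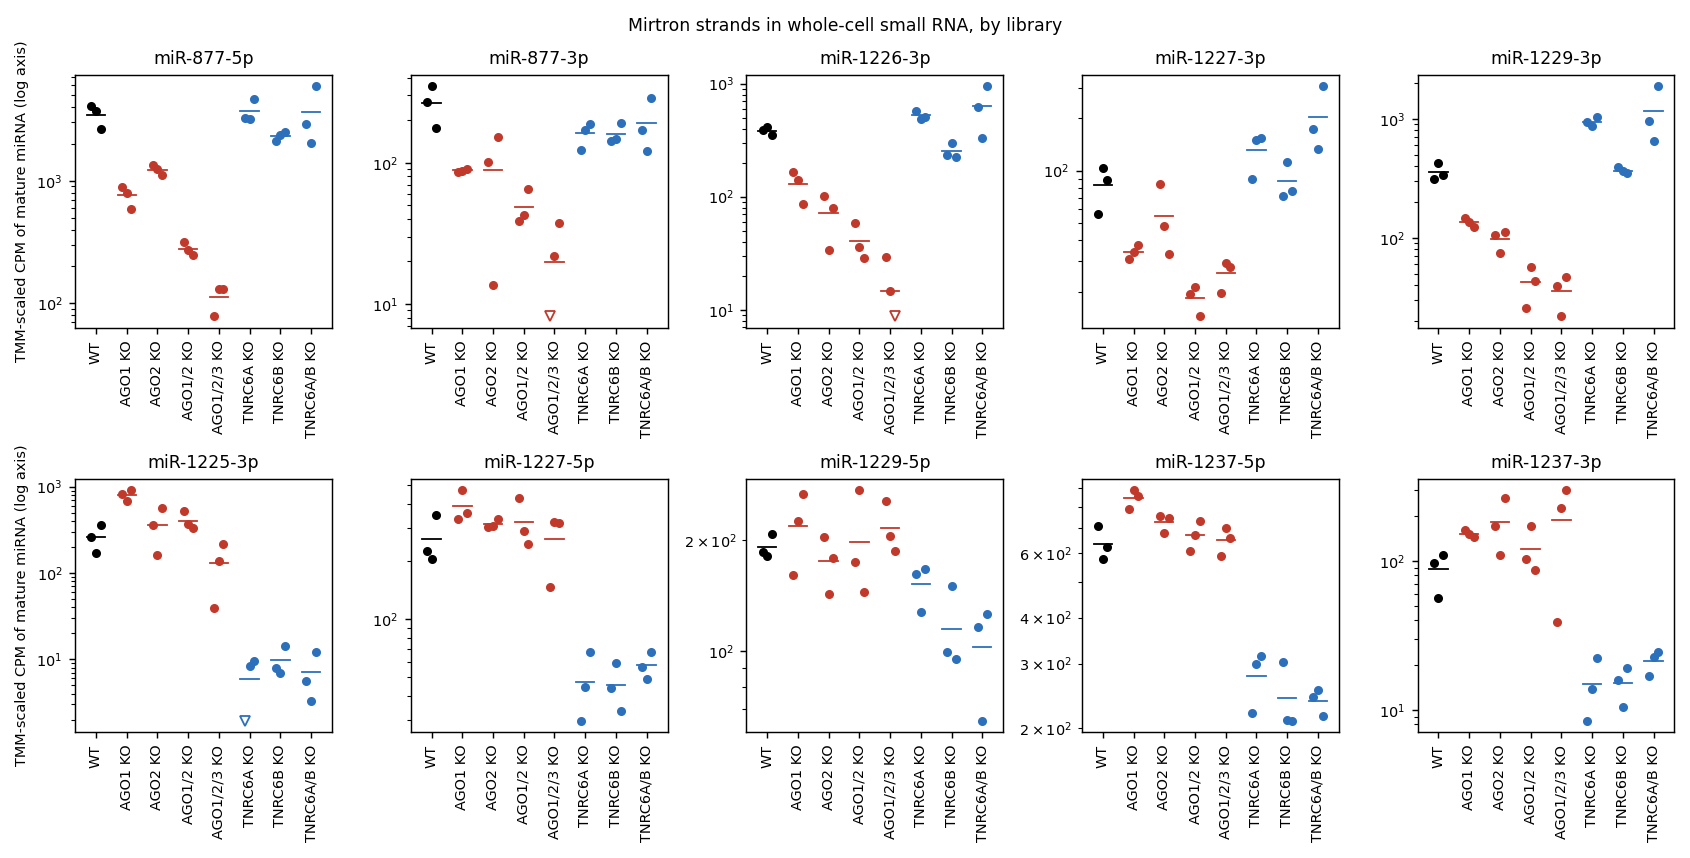
TMM-scaled CPM of the 10 mirtron strands in each whole-cell library, on a log axis, by group (black WT, red AGO knockouts, blue TNRC6 knockouts). Points are libraries, lines are the mean of 3 and open triangles mark libraries with no count. miR-877-5p steps down from 2631 to 4031 CPM in WT to 78.4 to 132 in AGO1/2/3 KO, and miR-1225-3p is at or below 14.3 in every TNRC6 knockout library.

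By count, AGO1 KO called 5 of the 10 strands lower and 1 higher, where 10.3% of all tested miRNAs were called, 6.51% higher and 3.81% lower, of 1997. AGO2 KO called 3 lower, where 0.851% of all tested miRNAs were called, 0.2% higher and 0.651% lower. AGO1/2 KO called 5 lower, where 9.06% of all tested miRNAs were called, 2.8% higher and 6.26% lower. AGO1/2/3 KO called 5 lower, where 17.1% of all tested miRNAs were called, 6.41% higher and 10.7% lower. Scaled to the miRNA total alone, the calls became 3 higher and 3 lower for AGO1 KO, 1 higher and 5 lower for AGO1/2 KO and 4 higher and 4 lower for AGO1/2/3 KO, and no call turned direction. In AGO1 KO that scale ended the calls of miR-877-3p (-1.11) and miR-1227-3p (-0.81), and in AGO1/2/3 KO that of miR-1227-3p (-0.52). miR-1227-3p in AGO1 KO also lost its call by DESeq2, and by edgeR without AGO1 KO replicate 1 or 2 or WT replicate 2 or 3. In AGO1/2/3 KO it lost it without WT replicate 2. miR-877-3p in AGO1 KO lost its call without WT replicate 2, and miR-877-5p in AGO2 KO without WT replicate 1 or 2, whereas miR-877-3p in AGO2 KO gained one without AGO2 KO replicate 3 or WT replicate 3. Between AGO2 KO and AGO1 KO edgeR called no member, with 2 at an unadjusted p under 0.05 and 0 called by DESeq2 (2.45% of all tested miRNAs were called, 1.3% higher and 1.15% lower by edgeR). The test of whether the AGO1/2 KO change departs from the sum of the AGO1 and AGO2 changes also called none by edgeR, with 2 at an unadjusted p under 0.05 and 0 by DESeq2 (5.31% of all tested miRNAs were called, 1.45% higher and 3.86% lower by edgeR).

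In the TNRC6 knockouts the strands called lower were all among the 5 that AGO loss had not lowered, in the fit of all whole-cell groups, and miR-1225-3p fell most. miR-1225-3p went from 258, 172 and 357 CPM in WT to 0, 8.31 and 9.61 with TNRC6A lost, 7.98, 7 and 14.3 with TNRC6B lost and 5.67, 3.25 and 12.2 with both lost, so every knockout library was far below every WT library. The falls were 5.22 ± 0.57, 4.72 ± 0.56 and 5.0 ± 0.53 on the log2 scale (edgeR adjusted p = 7.06e-10, 5.27e-09 and 4.08e-10). The knockout groups held only 6, 7 and 9 counts of it in total, so the size of these falls is uncertain. miR-1227-5p fell from 226, 207 and 348 CPM to 29.7, 44.3 and 67.3, 43.9, 59.5 and 33.4 and 56.7, 48.7 and 67.2, by 2.43 ± 0.36, 2.47 ± 0.37 and 2.15 ± 0.34. No TNRC6 knockout library overlapped WT for either strand.

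Both strands of miR-1237 fell as well. miR-1237-3p held 96.7, 56 and 110.2 CPM in WT against 8.49, 13.9 and 22.4 with TNRC6A lost and 17, 22.7 and 24.4 with both lost, and its log2 changes in TNRC6A, TNRC6B and TNRC6A/B KO were -2.48 ± 0.51, -2.52 ± 0.53 and -2.0 ± 0.46. miR-1237-5p was 221, 299 and 314, 303, 209.9 and 209.8 and 244, 253 and 216 CPM in the same knockouts, below all of WT, with changes of -1.19 ± 0.27, -1.4 ± 0.28 and -1.42 ± 0.27. On the total of all counted RNAs the miR-1237-5p change was -0.54 for TNRC6A KO and -0.65 for TNRC6A/B KO and no longer passed. miR-1229-5p fell in TNRC6A/B KO by 0.88 ± 0.31, a call lost by DESeq2, on the total of all counted RNAs (-0.16), and without TNRC6A/B KO replicate 2 or WT replicate 3.

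Of the strands that fell in AGO knockouts, miR-1229-3p rose. It went from 314, 427 and 335 CPM in WT to 933, 876 and 1028 with TNRC6A lost and 955, 646 and 1883 with both lost, with no overlap, by 1.4 ± 0.31 (SE, edgeR adjusted p = 0.000325) and 1.7 ± 0.31 (SE, edgeR adjusted p = 2.52e-05) on the log2 scale. In TNRC6B KO it stayed among the WT values at 391, 364 and 348 CPM (0.04 ± 0.31, not passing). miR-1227-3p rose in TNRC6A/B KO by 1.32 ± 0.33, from 56.4, 103 and 88.2 to 173, 133 and 307 CPM. miR-877-5p held 3259, 3206 and 4625 CPM with TNRC6A lost and 2925, 2020.5 and 5913 with both lost, overlapping WT, with changes of 0.10 ± 0.31 and 0.07 ± 0.31 that did not pass. With TNRC6B lost its libraries held 2119, 2362 and 2474 CPM, all below WT, and the change of -0.58 ± 0.31 did not pass (edgeR adjusted p = 0.138). miR-1226-3p was at 0.44 ± 0.33 and 0.73 ± 0.33 in TNRC6A and TNRC6A/B KO, and the latter passed by DESeq2 (adjusted p = 0.0235). In TNRC6B KO it held 235, 301 and 224 CPM, all below WT, with a change of -0.60 ± 0.34 that did not pass. miR-877-3p was at -0.71 ± 0.38, -0.73 ± 0.38 and -0.45 ± 0.37 in TNRC6A, TNRC6B and TNRC6A/B KO, overlapping WT in each and not passing. These 3 strands did pass in TNRC6B KO, as lower, in a fit of the compared groups alone (miR-877-5p -0.63, miR-1226-3p -0.64 and miR-877-3p -0.79), and so did miR-877-5p with the miRNA total alone (-0.64). miR-877-3p passed there too without a count filter (-0.95) and without WT replicate 3 (-1.05).

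TNRC6A KO called 4 members lower and 1 higher, TNRC6B KO 4 lower, and TNRC6A/B KO 5 lower and 2 higher. These knockouts moved many miRNAs. In TNRC6A KO 42% of all tested miRNAs were called, 23.7% higher and 18.3% lower. In TNRC6B KO 42.1% of all tested miRNAs were called, 23.7% higher and 18.4% lower, and in TNRC6A/B KO 43.9% of all tested miRNAs were called, 24.8% higher and 19.1% lower. Taken in either direction, the member counts in TNRC6A and TNRC6B KO are near these shares and are no result about the members. On the total of all counted RNAs the split was 4 higher and 3 lower for TNRC6A KO and 4 higher and 3 lower for TNRC6A/B KO. In TNRC6B KO a fit of the compared groups alone called 8 lower. The 3 TNRC6 comparisons share their WT libraries, as do the 4 with AGO knockouts.

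**Figure D2:**
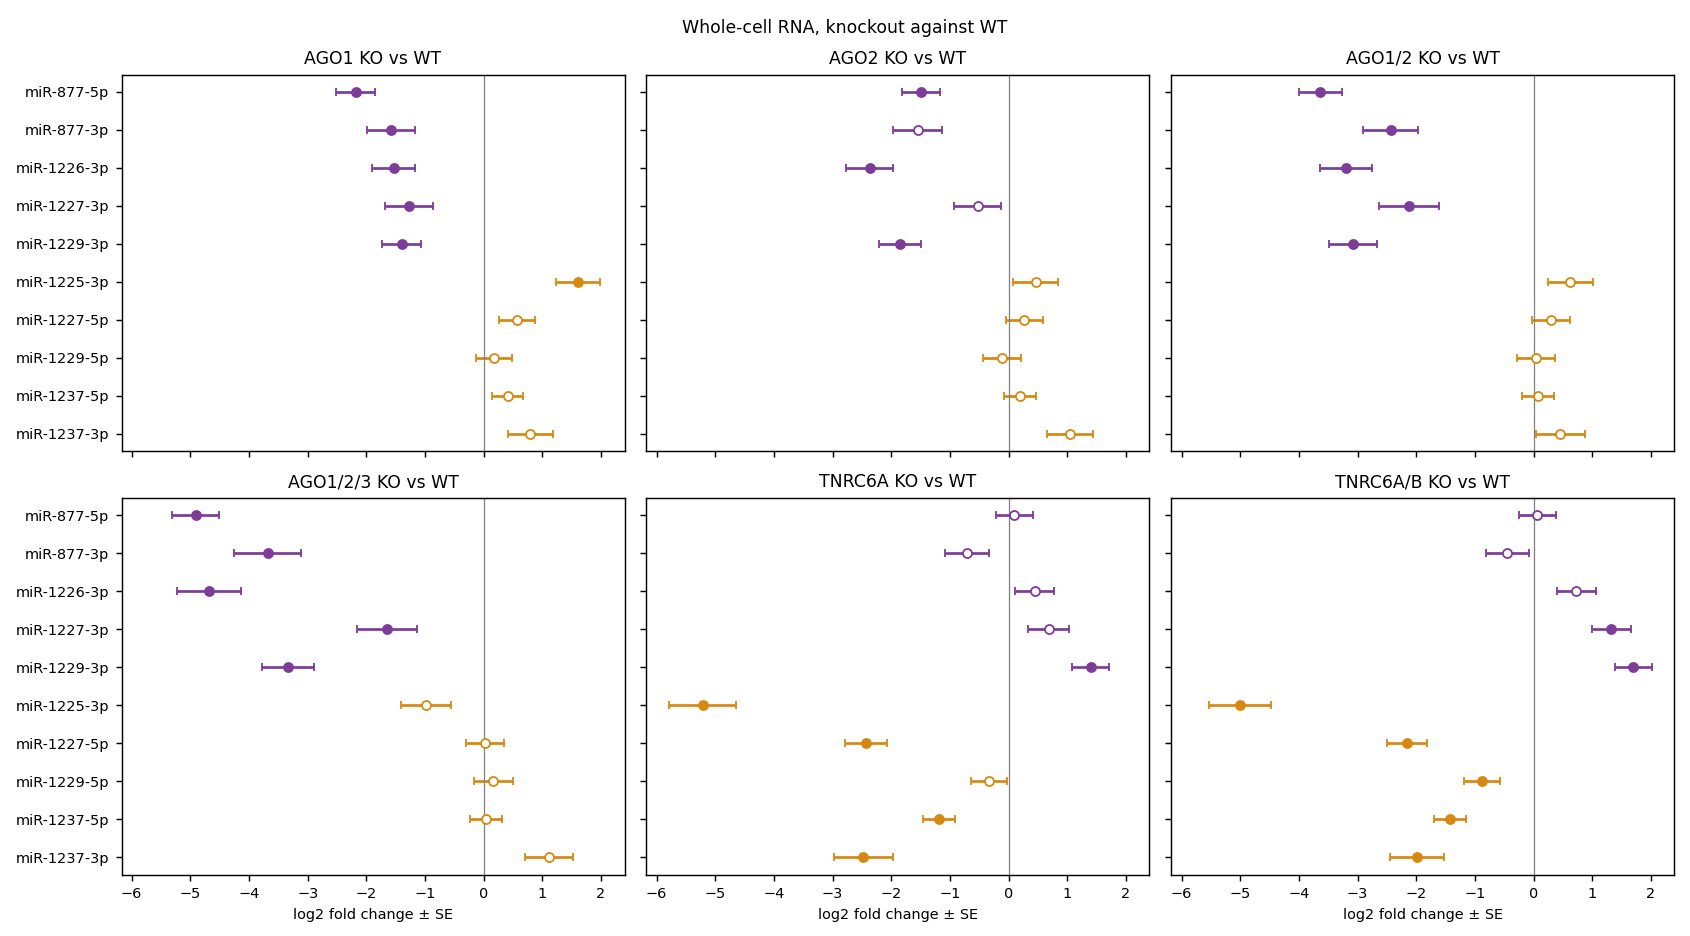
Log2 fold change ± SE against WT in whole-cell RNA for the 10 strands in 6 knockouts, with filled points where the edgeR adjusted p is under 0.05. Purple marks the 5 strands lower in AGO knockouts and orange the other 5. This split was made after these values were seen, so it fixes the side of the purple points in the AGO panels. Purple points lie to the left in the AGO panels, down to -4.91 for miR-877-5p, and orange points in the TNRC6 panels, down to -5.22 for miR-1225-3p. No called value here turns direction with the miRNA total or the total of all counted RNAs as the scale.

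The share of a hairpin's reads on its 5p strand is a ratio within a library and needs no scaling. For miR-1229 the 5p strand took 37.1, 29.8 and 38.2% of both strands' counts in WT whole-cell RNA. AGO1 KO libraries had 52.5, 62.2 and 68.5%, AGO2 KO libraries 65.7, 65.6 and 61.4%, AGO1/2 KO libraries 87.1, 82.6 and 76.9% and AGO1/2/3 KO libraries 86.7, 90.3 and 80%, so all AGO knockout libraries were above WT. In TNRC6A, TNRC6B and TNRC6A/B KO it took 14.7, 12.7 and 13.9%, 20.3, 29.3 and 21.5% and 10.8, 9.13 and 6.28%, all below WT. Each of these 7 comparisons gave an exact two-sided permutation p of 0.1, the smallest that 3 against 3 libraries allow, so none can pass 0.05. The mean share was 35% ± 4.58 (SD, n = 3) in WT, 85.7% ± 5.23 in AGO1/2/3 KO and 8.75% ± 2.31 in TNRC6A/B KO.

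miR-1227 went the same way. Its 5p share was 80, 66.7 and 79.8% in WT libraries, 91.5, 93.2 and 90.5% with AGO1 lost, 95.7, 93 and 94.4% with AGO2 lost too and 88.2, 91.7 and 91.9% with all 3 lost, without overlap with WT. In AGO2 KO it was 78.3, 86.5 and 90.9% and overlapped WT (exact permutation p = 0.3). It was 25, 22.9 and 30.4% with TNRC6A lost, 37.9, 34.7 and 30.4% with TNRC6B lost and 24.7, 26.8 and 17.9% with both lost (exact permutation p = 0.1 each). The same hairpin was therefore mostly 5p in WT whole-cell RNA and mostly 3p in the TNRC6 knockouts. The shares of miR-1227 and miR-1229 were added after the values had been seen. The 5p reads of both hairpins were recorded as sequence-variant rows alone, and the files do not state what sets such a row apart.

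miR-877 kept its 5p strand in the majority. The 5p share was 93.7, 91.4 and 93.7% in WT whole-cell RNA, 91.2, 90.1 and 86.6% with AGO1 lost, 89.1, 86.4 and 79.1% with AGO2 lost too and 96.4, 94.9 and 96.1% with TNRC6A lost. AGO1 and AGO1/2 KO lay below WT and TNRC6A KO above it, as did TNRC6A/B KO at 94.5, 94.4 and 95.4% (exact permutation p = 0.1 each). AGO2 KO at 92.9, 98.9 and 88% overlapped WT, as did AGO1/2/3 KO (77.8 to 100%) and TNRC6B KO (92.8 to 94.1%). The IPs separated further. The 5p strand took 85.1, 84.9 and 87.7% in the WT AGO2 IP, 86.6, 57.3 and 62.6% in the WT AGO1 IP and 48.3, 39.3 and 64.5% in the WT pan-AGO IP. The AGO2 and pan-AGO values did not overlap (exact permutation p = 0.1), and the AGO1 values overlapped both (exact permutation p = 0.3 each). In AGO2 KO the AGO2 IP held 94.1, 93.4 and 92.9%, near whole-cell RNA.

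In the WT IPs the miR-1227 and miR-1229 reads were mostly 3p. The miR-1229 5p share was 4.21, 9.66 and 3.55% with the AGO1 antibody, 3.31, 2.31 and 2.81% with the AGO2 antibody and 5.32, 10.7 and 3.98% with the pan-AGO antibody. Where the antibody's target was missing it was 91.5, 81.8 and 88.9% in the AGO1 IP and 55.4, 64.8 and 60% in the AGO2 IP, and the pan-AGO IP gave 59.3, 73 and 77.3% with AGO1 and AGO2 lost and 87.3, 95.5 and 88.1% with AGO3 lost as well. None of these groups overlapped its WT IP (exact permutation p = 0.1 each). For miR-1227 the share went from 19.5, 8.11 and 7.34% to 71.4, 73.3 and 85.7% in the AGO1 IP and from 6.5, 3.2 and 4.42% to 72.3, 66.7 and 60.9% in the AGO2 IP. In the pan-AGO IP miR-1227 stayed mostly 3p without AGO1 and AGO2: the 5p share was 2.56, 4.64 and 4.82% in WT and 18.2, 14.3 and 35.1% in AGO1/2 KO. With AGO3 lost as well it was 75, 25 and 33.3%, from 4 to 12 counts a library. Both knockouts lay above WT (exact permutation p = 0.1 each). miR-1237 stayed mostly 5p throughout, at 88, 91.2 and 84.9% in WT whole-cell RNA and 75.6, 69.1 and 70.6% in the WT AGO2 IP, the lowest of its IP groups. Its 5p strand lies at bases 50 to 70 of 102 and not at the start of the hairpin, so this ratio is not read as strand choice.

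**Figure D3:**
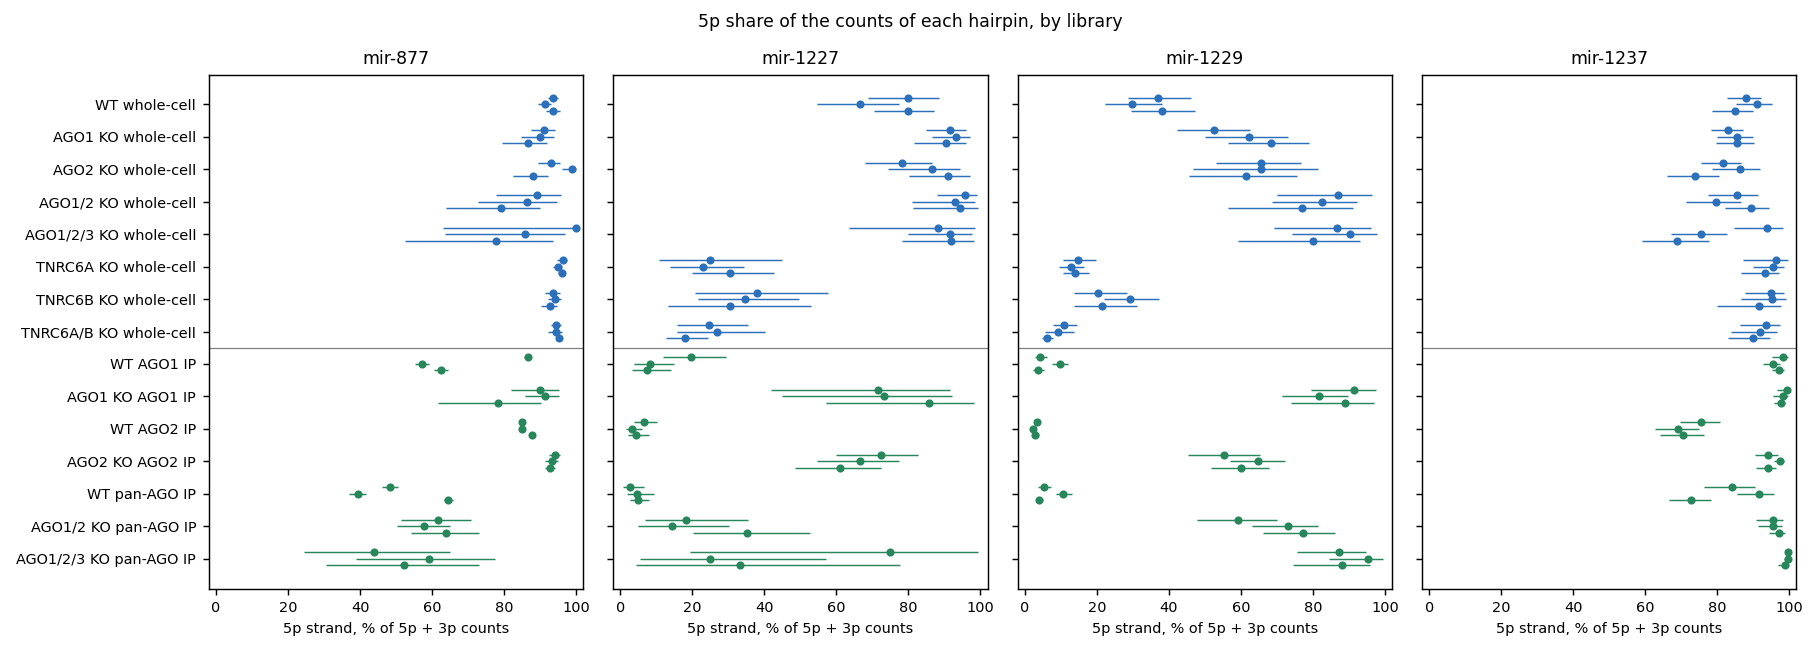
Percentage of a hairpin's counts on its 5p strand in each library, with exact binomial intervals at the 95% level that cover counting error only, for 4 hairpins and 15 groups (blue whole-cell RNA, green IP). In whole-cell RNA miR-1229 and miR-1227 are high in AGO knockouts and low in TNRC6 knockouts, and both are low in WT IPs. In the pan-AGO IPs of AGO knockouts miR-1229 is high, while miR-1227 is low in all but 1 library. In contrast, miR-877 and miR-1237 stay mostly 5p except for miR-877 in the pan-AGO IP of WT and of AGO1/2/3 KO, where some libraries lie under an even split. The miR-1237-5p strand lies at bases 50 to 70 of a 102-base hairpin, so its share is not read as strand choice.

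The AGO1 antibody recovered the 5 strands that fell in AGO knockouts. In the WT AGO1 IP miR-877-5p held 6025, 2163 and 1893 CPM and in the AGO1 KO control 238, 294 and 46.7. miR-1229-3p held 1001, 925 and 776 against 11.6, 29.6 and 6.44, and miR-877-3p 935, 1611 and 1131 against 26.1, 27.5 and 12.9. Every WT library was above every control library for these strands. The WT IP was higher by 5.82 ± 0.62 (SE, edgeR adjusted p = 6.33e-09) on the log2 scale for miR-1229-3p, 5.8 ± 0.57 for miR-877-3p, 5.19 ± 0.73 for miR-1226-3p, 4.19 ± 0.55 for miR-1227-3p and 4.13 ± 0.66 for miR-877-5p. The other 5 ran from -0.94 ± 0.57 (miR-1225-3p) to 0.55 ± 0.61 (miR-1237-3p) and did not pass. So 5 of 10 were called higher, where 13.8% of all tested miRNAs were called, 12.9% higher and 0.947% lower, of 2639. On the scale of the miRNA total alone the 5 stayed higher (1.1 for miR-877-5p to 3.04 for miR-877-3p) and the other 5 were called lower, from -2.28 for miR-1237-3p, whose sign turns, to -4.03 for miR-1225-3p.

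With TMM scaling the same 5 strands were also higher in the WT AGO2 IP than in its AGO2 KO control, along with miR-1237-3p. Because miRNAs made up 19.3% ± 3.67 of that control's counts, the difference is not one from an empty background. miR-1226-3p held 2122, 1631 and 1758 CPM in the WT AGO2 IP and 135, 74.7 and 127 in AGO2 KO, without overlap, a log2 difference of 4.03 ± 0.63 (SE, edgeR adjusted p = 6.64e-06). miR-1229-3p was higher by 4.73 ± 0.56, miR-877-3p by 3.85 ± 0.51, miR-1227-3p by 3.55 ± 0.46 and miR-877-5p by 2.63 ± 0.62. miR-1237-3p held 63.9, 78.1 and 84.2 CPM against 18.1, 14.9 and 17.9 (2.14 ± 0.46). miR-1227-5p was lower in the WT IP, at 19.5, 9.76 and 12.4 against 60.9, 47.8 and 37.5 CPM (-1.79 ± 0.43). That makes 6 called higher and 1 lower, where 44.4% of all tested miRNAs were called, 25.1% higher and 19.3% lower. The scale matters here: with the miRNA total alone the split was 3 higher and 4 lower, the differences of miR-877-5p and miR-1237-3p turned to -0.20 and -0.69 without passing, and that of miR-1227-3p was 0.70. On the total of all counted RNAs the split was 6 higher and 3 lower.

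The pan-AGO IP was also run where AGO1 and AGO2 were gone. miR-877-5p held 1185, 685 and 3418 CPM in WT libraries, 133, 160.5 and 138 with both lost and 35.4, 39.1 and 30.2 with AGO3 lost too. miR-1226-3p held 561, 457 and 1676, then 25, 50.4 and 46, then 16.1, 12.2 and 2.51. In both strands the 3 groups were fully separated. Against WT, the 5 strands fell in AGO1/2 KO by 2.09 ± 0.44 (miR-1227-3p) to 4.46 ± 0.66 (miR-1226-3p) on the log2 scale, and in AGO1/2/3 KO by 4.11 ± 0.52 (miR-1227-3p) to 6.46 ± 0.76 (miR-1226-3p; edgeR adjusted p = 4.73e-08). These were the members called in AGO1/2 KO, where 10.4% of all tested miRNAs were called, 1.71% higher and 8.72% lower. In AGO1/2/3 KO, where 26.9% of all tested miRNAs were called, 8.98% higher and 18% lower, miR-1237-3p was also lower (-2.59 ± 0.66), a call lost without WT pan-AGO IP replicate 3 (-1.71) and turning to 0.11 with the miRNA total alone.

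miR-1237-5p moved the other way in this IP. It held 128, 132 and 164 CPM in WT libraries, 307, 259.8 and 534 in those of AGO1/2 KO and 1403, 1283 and 664 in those of AGO1/2/3 KO, with no overlap between the 3 groups. It rose in AGO1/2/3 KO by 2.98 ± 0.50 (SE, edgeR adjusted p = 1.55e-05), and its value in AGO1/2 KO, 1.37 ± 0.48, passed by DESeq2 and not by edgeR. The miRNA share of these libraries was lower than in WT, at 19.9% ± 6.2 and 8.21% ± 4.52, and the part this had in the rise was not tested. With the miRNA total alone the splits were 3 higher and 4 lower in AGO1/2 KO and 3 higher and 5 lower in AGO1/2/3 KO. Between AGO1/2/3 and AGO1/2 KO, miR-877-5p (-2.04 ± 0.65), miR-1227-3p (-2.02 ± 0.53) and miR-1229-3p (-1.88 ± 0.60) were lower and miR-1237-5p (1.61 ± 0.48) higher, where 8.79% of all tested miRNAs were called, 1.63% higher and 7.16% lower. Without any single library of these groups 0 to 2 were called, with RLE factors 1 higher and 1 lower, with the miRNA total alone 2 higher and 0 lower and on the total of all counted RNAs 0 higher and 1 lower.

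**Figure D4:**
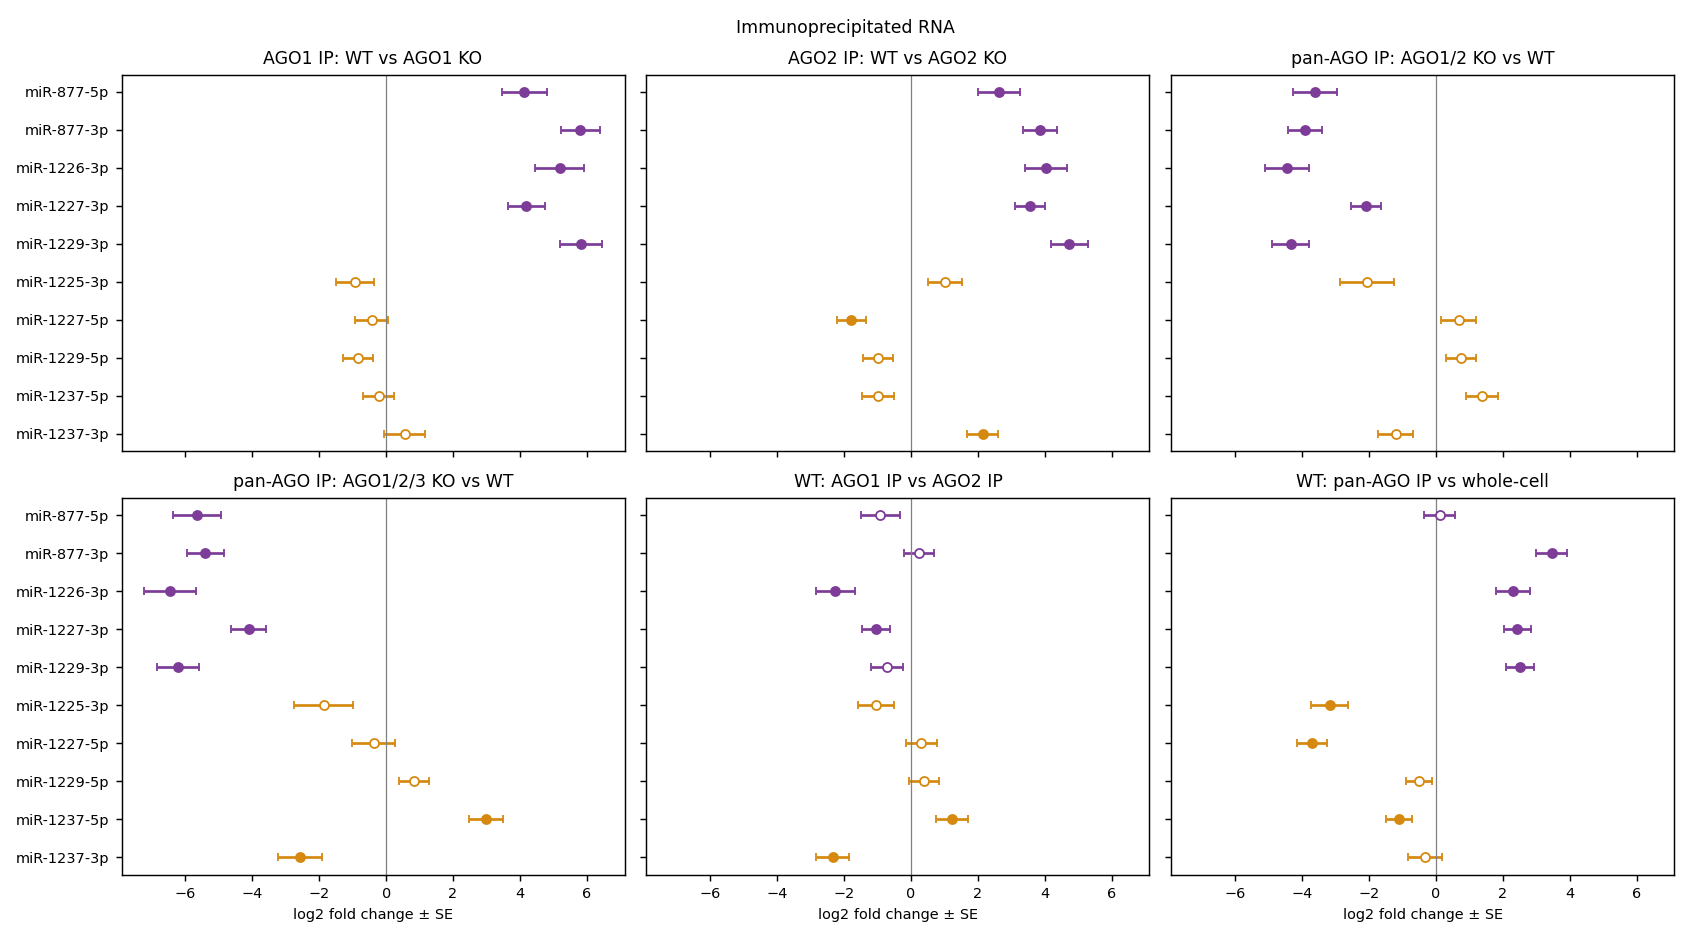
Log2 fold change ± SE of the 10 strands in 6 IP comparisons, with filled points where the edgeR adjusted p is under 0.05 (purple and orange as in the whole-cell plot). The 5 purple strands are higher in the WT AGO1 and AGO2 IPs than in their knockout controls and lower in the pan-AGO IPs of AGO1/2 and AGO1/2/3 KO. With the miRNA total alone as the scale miR-877-5p turns to -0.20 in the AGO2 IP, miR-1226-3p, miR-1227-3p and miR-1237-3p turn to 0.85, 2.34 and 1.1 between the AGO1 and AGO2 IPs, and miR-1226-3p turns to -0.03 in the pan-AGO IP against whole-cell RNA. On that scale miR-1237-3p turns to -2.28 with the AGO1 antibody, -0.69 with the AGO2 antibody and 0.11 in the pan-AGO IP of AGO1/2/3 KO.

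Between the WT AGO1 and AGO2 IPs, miR-1226-3p was lower in the AGO1 IP, at 669, 268 and 207 against 2122, 1631 and 1758 CPM (-2.27 ± 0.59 (SE, edgeR adjusted p = 0.00198)), and so was miR-1237-3p (-2.34 ± 0.49). miR-1227-3p (-1.06 ± 0.42) was also called lower and miR-1237-5p (1.22 ± 0.47) higher, where 45.8% of all tested miRNAs were called, 20.2% higher and 25.7% lower. These directions depend on the scale. All 3 lower strands turned with the miRNA total alone, to 0.85, 1.1 and 2.34, and the split was 8 higher and 0 lower; on the total of all counted RNAs it was 4 higher and 1 lower. The call of miR-1227-3p was lost without any of the 6 libraries in turn and that of miR-1237-5p without 5 of them.

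Set against whole-cell RNA of the same genotype, some 3p strands were enriched and miR-1225-3p and miR-1227-5p depleted in every WT IP. In the AGO1 IP miR-877-3p (3.41 ± 0.46), miR-1229-3p (2.53 ± 0.43) and miR-1227-3p (1.91 ± 0.39) were higher, and miR-1225-3p (-2.74 ± 0.55) and miR-1227-5p (-2.7 ± 0.44) lower (36.6% of all tested miRNAs were called, 18.6% higher and 18.1% lower, of 2123). In the AGO2 IP 5 were higher, led by miR-1226-3p (3.43 ± 0.54), and 3 lower (57.1% of all tested miRNAs were called, 30.3% higher and 26.8% lower). In the pan-AGO IP 4 were higher and 3 lower (48.2% of all tested miRNAs were called, 23.9% higher and 24.3% lower), while miR-877-5p was at 0.10 ± 0.47. Scaled to the miRNA total alone, the AGO2 split was 0 higher and 7 lower and the pan-AGO split 1 higher and 6 lower, so most calls of enrichment with these antibodies were lost on that scale: miR-877-3p was at -0.75 and miR-1226-3p at -0.47 in the AGO2 IP. The depletion of miR-1225-3p and miR-1227-5p held on every scale tried in these 3 IPs.

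The pan-AGO IP against whole-cell RNA was compared in the knockouts as well. In AGO1/2 KO 3 members were higher (miR-1227-3p 2.66 ± 0.52, miR-877-3p 2.18 ± 0.50 and miR-1229-3p 1.45 ± 0.50) and 3 lower, led by miR-1225-3p (-5.68 ± 0.71; 45.7% of all tested miRNAs were called, 22% higher and 23.7% lower). The miR-1225-3p value rests on 5 counts in total in the pan-AGO IP of AGO1/2 KO. In AGO1/2/3 KO miR-1237-5p (2.2 ± 0.40) and miR-877-3p (2.12 ± 0.63) were higher and 3 were lower (39.2% of all tested miRNAs were called, 20.2% higher and 19% lower), and a fit of those groups alone called 2 members. With the miRNA total alone the splits were 0 higher and 6 lower and 1 higher and 4 lower, and on the total of all counted RNAs 7 higher and 2 lower and 3 higher and 3 lower. The change in enrichment itself, tested as an interaction, was called for 3 members in AGO1/2/3 KO (4.47% of all tested miRNAs were called, 1.74% higher and 2.73% lower): miR-1237-5p (3.31 ± 0.55 (SE, edgeR adjusted p = 0.000264)), miR-1237-3p (-3.31 ± 0.89 (SE, edgeR adjusted p = 0.0204)) and miR-1229-3p (-2.52 ± 0.75 (SE, edgeR adjusted p = 0.042)). The miR-1229-3p call was lost without 10 of the 12 libraries in turn and the miR-1237-3p call without 6, and both were lost with the miRNA total alone. In AGO1/2 KO edgeR called none, with 2 at an unadjusted p under 0.05 and 0 by DESeq2 (0.424% of all tested miRNAs were called, 0% higher and 0.424% lower by edgeR).

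Counts assigned to the hairpin precursors themselves were few. The mir-1226 precursor had 154, 167 and 117 counts in the WT AGO2 IP, 0, 0 and 2 in the AGO2 IP of AGO2 KO, 32, 19 and 69 in the WT pan-AGO IP and 5, 4 and 1 in WT whole-cell RNA. mir-877 had 42, 51 and 58 against 15, 5 and 17 in the AGO2 IP, and mir-1225 15, 14 and 9 against 3, 1 and 4. In all 3 the WT AGO2 libraries were above their controls, also as CPM of all counts. In the WT AGO1 IP the precursors of miR-877, miR-1225 and miR-1226 had 27, 9 and 14, 5, 0 and 0 and 8, 1 and 1 counts. As CPM of all counts, mir-877 was at 9.43, 3.06 and 3.16 in the WT AGO1 IP and 4.95, 5.87 and 6.88 in the WT AGO2 IP, which overlapped. On that scale mir-1226 was at 2.79, 0.34 and 0.226 in the WT AGO1 IP and 18.1, 19.2 and 13.9 in the WT AGO2 IP, without overlap. The precursors of miR-1227, miR-1229 and miR-1237 had at most 1 count in any library. The libraries differ in depth, and no test was run.

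Fragments of host gene transcripts, other than the mirtrons, were measured in the same libraries as CPM of all counts. In WT whole-cell RNA they were 2.68 ± 0.109 (SD, n = 3) for ABCF1, 9.63 ± 2.24 for DHX30, 3.38 ± 0.78 for MGAT4B, 1.75 ± 0.182 for PKD1, 1.5 ± 0.194 for PLEKHJ1 and 0.887 ± 0.616 for RPS6KA4. In the same gene order they were 1.09 ± 0.643, 2.66 ± 0.588, 2.87 ± 0.447, 1.24 ± 1.19, 0.694 ± 0.348 and 1.45 ± 0.685 in AGO1/2/3 KO. In TNRC6A/B KO they were 10.1 ± 0.863, 12.1 ± 4.15, 5.4 ± 0.403, 3.26 ± 0.61, 4.99 ± 1.8 and 2.32 ± 1.62. PKD1 fragments, beside the low miR-1225-3p of the TNRC6 knockouts, were 4.13 ± 0.434 in TNRC6A KO and 2.68 ± 1.54 in TNRC6B KO, whose libraries ran from 1.48 to 4.42 and overlapped WT (1.64 to 1.96). Small-RNA fragments are no measure of mRNA level, and their part in the strand levels was not tested.

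Of 14 further mirtron strands listed for comparison, 13 were in the files, 12 were tested in whole-cell RNA and 13 in the IPs. The list includes miR-1225-5p and miR-1226-5p, the partner strands of the members miR-1225-3p and miR-1226-3p, so not all of it comes from other hairpins. In AGO1 KO miR-1224-5p fell (-1.37 ± 0.34; 10.3% of all tested miRNAs were called), and in AGO2, AGO1/2 and AGO1/2/3 KO edgeR called none (0, 0 and 1 at an unadjusted p under 0.05, 0 by DESeq2 in each). The TNRC6 knockouts called 3, 4 and 4 of the 12, below the 42%, 42.1% and 43.9% called over all tested miRNAs, so these counts are no result about the list. The strands called were all lower: miR-1233-5p (-4.22 ± 0.42, -3.49 ± 0.41 and -3.58 ± 0.39 in TNRC6A, TNRC6B and TNRC6A/B KO), miR-1228-5p (-2.7 ± 0.33 in TNRC6A KO), miR-1234-3p (-1.9 ± 0.39 in TNRC6A KO) and, without TNRC6A KO, miR-1228-3p (-3.03 ± 0.69 in TNRC6B KO). In the AGO1 IP 4 of 13 were higher in WT than in AGO1 KO, led by miR-1224-3p (6.14 ± 0.70), where 12.9% of all tested miRNAs were higher. In the AGO2 IP 4 were higher, led by miR-1226-5p (2.44 ± 0.46), and 2 lower, miR-1238-5p (-1.46 ± 0.55) and miR-1228-5p (-1.15 ± 0.44), near the 44.4% called over all. In the pan-AGO IP 2 were lower in AGO1/2 KO and 4 in AGO1/2/3 KO, where 8.72% and 18% of all tested miRNAs were lower, led in both by miR-1236-3p (-3.19 ± 0.49 and -3.49 ± 0.55).

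Also made without DROSHA, though not from mirtrons, are miR-484 and miR-320a-3p. miR-484 fell in AGO1 KO (-1.09 ± 0.36) and AGO1/2/3 KO (-1.73 ± 0.39) and was higher in the WT AGO1 IP (3.65 ± 0.64) and AGO2 IP (1.92 ± 0.58) than in the knockout controls. miR-320a-3p fell in TNRC6A, TNRC6B and TNRC6A/B KO (-0.94 ± 0.30, -1.36 ± 0.30 and -0.86 ± 0.30), was higher in the WT AGO2 IP (2.84 ± 0.64) and fell in the pan-AGO IPs of AGO1/2 and AGO1/2/3 KO (-2.17 ± 0.63 and -2.81 ± 0.65).

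Summed, the 10 strands took 5019 ± 482 CPM of miRNA counts (SD, n = 3) in WT whole-cell RNA. AGO1 KO libraries held 4136 ± 223, AGO2 KO libraries 3254 ± 851, AGO1/2 KO libraries 2705 ± 85.6 and AGO1/2/3 KO libraries 3092 ± 858, all without overlap with WT (exact permutation p = 0.1, the smallest possible). TNRC6B KO held 2908 ± 175, also without overlap, while TNRC6A KO at 4418 ± 285 and TNRC6A/B KO at 4327 ± 443 overlapped WT (exact permutation p = 0.2 each). The sum was 1436 ± 57.8 in the WT AGO2 IP, 7865 ± 1407 in the WT AGO1 IP and 2013 ± 452 in the WT pan-AGO IP. In the WT AGO1 IP and the WT AGO2 IP it overlapped the knockout controls at 9075 ± 1248 and 1679 ± 318. These sums differ in make-up. miR-1237-5p took 56.2% ± 21.4 of the sum in the AGO1 control against 7.78% ± 4.1 in the WT AGO1 IP. Its part was 20.8% ± 9.6 in the AGO2 control against 1.68% ± 0.0749 in the WT AGO2 IP. In whole-cell RNA it was 40.3% ± 6.71 in AGO1/2/3 KO and 10.7% ± 1.29 in WT.

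Across the 24 whole-cell libraries, miR-1225-3p and miR-1227-5p moved most alike among members (Pearson r = 0.96 of log2 CPM + 1), whereas miR-1225-3p and miR-1227-3p gave r = -0.67 and the strands of miR-1227 r = -0.68. miR-877-5p and miR-1226-3p gave r = 0.88. Of 1987 other miRNAs the nearest to miR-877-5p were miR-99b-5p (r = 0.98) and miR-183-5p (r = 0.98), to miR-1229-3p miR-181b-5p (r = 0.96) and let-7c-5p (r = 0.95), and to miR-1237-5p miR-6805-3p (r = 0.98) and miR-105-5p (r = 0.97). The libraries share 8 genotypes and their scaling, so these values describe and are given no p.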

How the data were processed

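The deposited files hold whole-number counts per RNA feature, 1 file per library, for which the authors used cutadapt 1.16, Bowtie 1.1.2 and the build GRCh38 (hg38), per the submitters' processing notes. The sources used here give neither mapping settings nor the treatment of reads with several matches. Libraries were made with TruSeq Small RNA kits, per the labels' protocols, and no molecular identifiers are named, so intervals cover counting error only. Groups follow the labelled genotype and antibody.

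Variant rows were summed to their miRNA (miR-1227-5p and miR-1229-5p have no other rows). Mature miRNA counts were filtered with filterByExpr (minimum count 10, minimum total 15), TMM-scaled and tested with edgeR 4.0.16 (R 4.3.3, limma 3.58.1) quasi-likelihood in 3 fits: 24 whole-cell libraries, 21 IP libraries, and 24 libraries of both kinds. SE is the size of the log2 change over the square root of F. p-values were Benjamini-Hochberg adjusted over all tested miRNAs (threshold 0.05). Strand shares and sums were compared by exact permutation. On simulated counts, the edgeR test found 24% of the 2-fold and 73% of the 4-fold changes among 1997 miRNAs for AGO1 KO against WT. For AGO1/2 KO in the pan-AGO IP it found 6% and 59% among 2639.

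The members and lists were chosen with earlier results of these data known. All members are named. Of the other listed mirtrons up to 4 called per comparison are eligible, by size of change, and the nearest miRNAs are given for the 3 members with the highest mean TMM-scaled CPM over the 24 whole-cell libraries. Alternatives were RLE factors, the miRNA total alone, the total of every RNA counted, no count filter, DESeq2 1.42.0, variant rows left out, fits of the compared groups alone, replicate number as a block, and each library left out in turn. The shares of miR-1227 and miR-1229 were added after seeing the data. Sequences are from RefSeq and introns from GENCODE v29. miR-1231, listed among the other mirtrons, was not analysed here. Tables were made in Python 3.11.15 (scipy 1.17.1, numpy 2.4.6, pandas 2.3.3) and plots with matplotlib 3.10.9.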

Additional observations from a re-analysis of the deposited data

Results flagged for a closer look

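The enrichment of 3 strands in the pan-AGO IP over whole-cell RNA differed between AGO1/2/3 KO and WT by the interaction test in edgeR. The difference was -2.52 ± 0.75 (log2 ± SE) for miR-1229-3p, -3.31 ± 0.89 for miR-1237-3p and 3.31 ± 0.55 for miR-1237-5p. With the miRNA total alone as the scale the first was -1.48 and the second -2.18, and neither passed, while miR-1237-5p was at 4.28 and passed. No group is large enough for a check of single outlying libraries.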

How the results depend on the processing

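Depth limits the scarce strands most: miR-1237-3p had 1 to 72 counts a library and miR-1227-3p 1 to 296, and the chance of calling a 2-fold change was low. Some of the largest changes also rest on few counts. AGO1/2/3 KO whole-cell RNA held 5 counts of miR-1226-3p in total, 7 of miR-877-3p, 9 of miR-1227-3p and 12 of miR-1229-3p. The cause of the shifts below was not tested. Counts of called members stayed within 1.5 times the reported number without a count filter. With RLE factors the pan-AGO count for AGO1/2/3 against AGO1/2 KO went from 4 to 2. The miRNA total alone gave 2 there, AGO1/2/3 KO against WT went from 5 to 8, AGO1/2/3 against AGO1/2 KO in whole-cell RNA from 1 to 0, the AGO1 IP from 5 to 10, AGO1 against AGO2 IP from 4 to 8 and the AGO1/2/3 enrichment interaction from 3 to 1. On the total of all counted RNAs the pan-AGO count for AGO1/2/3 against AGO1/2 KO was 1 and AGO1 IP against whole-cell RNA went from 5 to 8. AGO1/2/3 against AGO1/2 KO in whole-cell RNA was 2 by DESeq2, without variant rows and in a fit of those groups alone. Fits of the compared groups alone gave 8 for TNRC6B KO (from 4) and 2 for the pan-AGO IP against whole-cell RNA in AGO1/2/3 KO (from 5).

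By the miRNA total alone 24 single-strand values that were called on either scale changed sign. Sign changes without a call on either scale were not counted. They were miR-1237-3p (-2.28) in the AGO1 IP, miR-877-5p (-0.20), miR-1225-3p (-1.76) and miR-1237-3p (-0.69) in the AGO2 IP, and miR-1227-5p (2.15) and miR-1237-3p (0.11) in the pan-AGO IP of AGO1/2/3 KO. Between AGO1 and AGO2 IPs they were miR-877-5p (2.19), miR-1225-3p (2.03), miR-1226-3p (0.85), miR-1227-3p (2.34), miR-1229-3p (2.6) and miR-1237-3p (1.1). In the AGO2 IP against whole-cell RNA they were miR-877-5p (-1.85), miR-877-3p (-0.75), miR-1226-3p (-0.47), miR-1227-3p (-0.95), miR-1229-3p (-0.66) and miR-1237-3p (-2.95). In the pan-AGO IP against whole-cell RNA they were miR-877-5p (-2.27) and miR-1226-3p (-0.031) in WT, and miR-877-5p (-1.57), miR-1229-5p (-1.46), miR-1229-3p (-0.38) and miR-1237-5p (-1.48) in AGO1/2 KO. The summed strands, as CPM of all counted RNAs, were higher than their comparison group in TNRC6A KO (by 146), TNRC6A/B KO (179), the WT AGO1 IP (1182) and the WT AGO2 IP (859), and lower in the pan-AGO IP of AGO1/2/3 KO (-644), each the opposite of the share of miRNA counts.

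Leaving out each library, the 5p share difference of miR-877 against WT ranged over -4.63 to 7.97 points in the pan-AGO IP of AGO1/2/3 KO, -2.5 to 2.98 in AGO2 KO and -0.175 to 0.98 in TNRC6B KO. Called members ranged over 2 to 5 for AGO1 against AGO2 IP, 5 to 9 for the AGO1 IP against whole-cell RNA, 0 to 2 for pan-AGO AGO1/2/3 against AGO1/2 KO, 1 to 3 for the AGO1/2/3 enrichment interaction, and 0 to 1 for the AGO1 by AGO2 interaction, for AGO1/2/3 against AGO1/2 KO and for AGO2 against AGO1 KO in whole-cell RNA. No comparison had all 3 correlations between the deviations of same-numbered replicates over 0.1. In the AGO1 IP of WT against AGO1 KO they were 0.22 and 0.32 for numbers 1 and 3 and 0.04 for number 2. The sample titles link such replicates by number alone. With a replicate block AGO2 against AGO1 KO called 1 member in place of 0, and the other counts stayed within 1.5 times.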
